A study of Mus musculus with 2 samples.

Results

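CD8 T cells that carried transcripts of the checkpoint receptors Pdcd1, Lag3 or Havcr2 were described in mouse pancreatic tumours profiled by droplet single-cell RNA-seq. The cells were selected on raw counts of unique molecular identifiers (UMIs, the molecules counted per gene and cell). A cell needed 500 genes or more with no more than 15% of its UMIs mitochondrial, at least 2 UMIs of Cd3d, Cd3e, Cd3g and Trac together, a UMI of Cd8a or Cd8b1, no UMI of Cd4 or Foxp3, and at most 5 UMIs of Krt8, Krt18 and Krt19 together. It also had at least 1 UMI of Pdcd1, Lag3 or Havcr2. The rule found 611 cells among 22472 kept cells, 91 of 11664 in the control library and 520 of 10808 in the knockout library. These 611 cells are called checkpoint-positive CD8 T cells here, and the name stands for a UMI seen, not for protein.

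The tumours were grown from KPC pancreatic cancer cells implanted into the pancreas and were taken at day 21. Control mice were Porcn fl/fl littermates without Cre, and knockout mice were Csf1r-Cre;Porcn fl/fl, so both groups carried the floxed Porcn allele and differed in the Cre transgene. Cre was driven by Csf1r, a gene of macrophages and other myeloid cells, so the T cells themselves were not the intended site of deletion. Tumours of 5 mice were pooled into 1 library per genotype. With 1 library per genotype there is no replicate check, and no test between genotypes could be made. Every interval is a 95% interval for counting error alone, and mouse, pool and library cannot be told apart from genotype.

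Porcn encodes porcupine, the enzyme that attaches a lipid to Wnt ligands, a step their secretion needs. Pdcd1 encodes PD-1, Lag3 encodes a receptor for MHC class II, and Havcr2 encodes TIM-3. T cells express these inhibitory receptors after antigen stimulation, transiently during activation and for longer when stimulation persists. Chronically stimulated CD8 T cells in tumours are often called exhausted, a state linked to the factor Tox, whereas Tcf7 and Lef1 mark naive and stem-like cells. A receptor transcript alone does not separate an activated from an exhausted cell.

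Sequences just upstream of Pdcd1 and Havcr2, the rule's genes with an entry in the promoter table used, and of Ifng, an effector gene that was higher in these cells than in other CD8 T cells and lower in the knockout, are given for reference. Each is the 250 bases before the RefSeq transcription start on GRCm38.p6, written 5′ to 3′ on the gene's strand. Pdcd1 lies at chr1:94052554-94052803 on the minus strand, Havcr2 at chr11:46454681-46454930 on the plus strand and Ifng at chr10:118440796-118441045 on the plus strand. Capitals mark matches to the AP-1 motif TGANTCA, the NFAT core TGGAAA or the Runx motif TGTGGT, searched on both strands.
Pdcd1: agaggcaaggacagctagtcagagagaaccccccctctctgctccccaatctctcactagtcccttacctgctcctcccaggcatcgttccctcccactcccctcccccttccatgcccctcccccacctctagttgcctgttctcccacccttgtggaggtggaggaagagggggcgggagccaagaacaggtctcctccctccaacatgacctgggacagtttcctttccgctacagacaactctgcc
Havcr2: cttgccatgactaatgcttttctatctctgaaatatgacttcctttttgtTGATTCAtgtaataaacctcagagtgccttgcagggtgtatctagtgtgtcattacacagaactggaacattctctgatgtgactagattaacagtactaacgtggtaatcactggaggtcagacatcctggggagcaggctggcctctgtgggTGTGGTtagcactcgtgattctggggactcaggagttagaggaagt
Ifng: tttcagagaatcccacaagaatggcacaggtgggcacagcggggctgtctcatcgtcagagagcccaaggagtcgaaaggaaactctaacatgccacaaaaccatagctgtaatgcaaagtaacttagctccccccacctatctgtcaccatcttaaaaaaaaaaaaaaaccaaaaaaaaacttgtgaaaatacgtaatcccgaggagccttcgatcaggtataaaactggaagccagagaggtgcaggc
The Havcr2 window held 1 AP-1 match, starting 200 bases before the start, and 1 Runx match, starting 46 bases before it. The Pdcd1 and Ifng windows held no match to these letters. Over 32851 promoters, 6.75% held the AP-1 letters, 18.6% the NFAT core and 14.1% the Runx letters in windows of the same length. The motifs did not overlap in the Havcr2 window.

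The checkpoint-positive cells were shallow beside the tumour cells around them. They held 477096 UMIs in the control and 2830586 in the knockout library, with medians of 3699 UMIs per control cell (range 1122 to 57959) and 4599 per knockout cell (range 933 to 46459). Across all kept cells the medians were 12235 and 10321 UMIs. One control cell held 12.1% of the control cells' UMIs. It had 504 UMIs of the collagen gene Col1a1, 2 of Cd8a and 1 of Pdcd1, held 96.5% of the fibroblast-marker UMIs of its group, and was not called a doublet. The numbers of genes past 2-fold between genotypes, and the ratios in the plot of 4 settings, are also given without it. The libraries shared 38 barcodes among kept cells and none among checkpoint-positive cells, and Scrublet called 0 of 91 control and 11 of 520 knockout cells doublets. Porcn was nearly unseen in these cells, with 1 UMI in control and 0 in knockout cells, and was at 7.25 and 5.28 CPM (UMIs of the gene per 1000000 UMIs) over non-T cells. Whether these 3′ reads lie in the deleted part was not examined, so they do not check the genotype.

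Markers of CD8 T cells were present. All 6 genes of the CD8 marker list and all 8 of the T cell list were seen in both libraries, at 2949 and 2994 CPM and at 5672 and 6530 CPM in sum (the rule used some of them). The same lists summed to 12.2 and 21.4 CPM and to 3.44 and 16.5 CPM over non-T cells. Of the natural killer cell markers, Ncr1, Klrb1c, Klra8 and Tyrobp were at 0 in control cells, and the list summed to 29.3 CPM there and 119 CPM in knockout cells. Summed macrophage and monocyte markers were 77.6 and 285 CPM, plasma cell markers 46.1 and 247 CPM, dendritic cell markers 151 and 417 CPM, acinar markers 14.7 and 98.2 CPM, and epithelial markers 136 and 122 CPM. Fibroblast markers summed to 2448 and 533 CPM. Without the deepest control cell the control fibroblast sum was 97.8 CPM and the macrophage and monocyte sum 31.0 CPM. In the control cells Csf1r, Adgre1, Cd14, Mzb1, Jchain and Cd79a were at 0. Seen in control cells were 3 of 7 natural killer, 5 of 10 macrophage and monocyte, 3 of 5 plasma and 1 of 5 B cell markers. In knockout cells, which held more UMIs in total, every marker of these lists was seen. Cells with 3 or more UMIs of a list numbered 2, 1, 1 and 0 in control, in the same order. In knockout they numbered 22, 12, 76 and 4. The part of these other transcripts in the results was not tested beyond the values given beside them.

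Checkpoint-positive CD8 T cells made up a larger share of the knockout library. The control share was 0.780% (exact binomial interval 0.629 to 0.957) and the knockout share 4.81% (4.42 to 5.23), which is 6.17 times as high (4.93 to 7.79). CD8 T cells without the receptors were 19 cells or 0.163% (0.0981 to 0.254) in control and 183 cells or 1.69% (1.46 to 1.95) in knockout, a ratio of 10.4 (6.47 to 17.7), and these 2 ratios have overlapping intervals. Among kept cells within the keratin limit the checkpoint-positive counts were 91 of 2540 and 520 of 4840, the second 2.999 times the first share (2.40 to 3.79). Of all cells with at least 2 T cell UMIs they were fewer in the knockout, 28.3% (26.2 to 30.4) against 40.8% (34.3 to 47.6). Dissociation and live-cell enrichment come before these shares, and 1 library per genotype gives no spread to set them against.

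At equal depth, a smaller share of knockout CD8 T cells showed a checkpoint transcript. Each CD8 T cell was thinned at random to 1000 UMIs, which left out 1 control and 2 knockout cells. A UMI of Pdcd1, Lag3 or Havcr2 was then seen in 60 of 109 control cells, 55.05% (45.2 to 64.6), and in 287 of 701 knockout cells, 40.9% (37.3 to 44.7). The difference of knockout minus control was -14.1 percentage points (Newcombe interval -23.8 to -4.05). Without thinning the shares were 82.7% and 74.0%, a difference of -8.76 points (-15.6 to -0.0499).

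Lag3 differed most among the receptors at equal depth. It was seen in 30.3% of control CD8 T cells (21.8 to 39.8) and 17.0% of knockout cells (14.3 to 19.96), intervals that do not overlap at this depth. They overlap at 2000 UMIs, where the Lag3 shares were 47.3% (36.9 to 57.9) and 34.4% (30.7 to 38.2), and without thinning, at 63.6% (53.9 to 72.6) and 51.9% (48.2 to 55.7). For Pdcd1 the values at 1000 UMIs were 22.9% (15.4 to 32.0) and 20.7% (17.7 to 23.9), and those of Havcr2 22.0% (14.6 to 31.0) and 17.4% (14.7 to 20.4), with overlapping intervals. Keratin-rich tumour cells, which should lack these receptors, showed any of them in 0.859% of control and 1.44% of knockout cells thinned to the same depth, from median depths of 16182 and 17292 UMIs. Most of that was Havcr2, at 0.818% and 1.40%. The CD8 shares thus lay far above the level in cells that should lack the receptors. Conventional CD4 T cells, with a Cd4 UMI and no Cd8 or Foxp3 UMI, showed a receptor in 9 of 21 control and 66 of 308 knockout cells, and Foxp3 cells in 1 of 8 and 32 of 172.

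**Figure D1:**
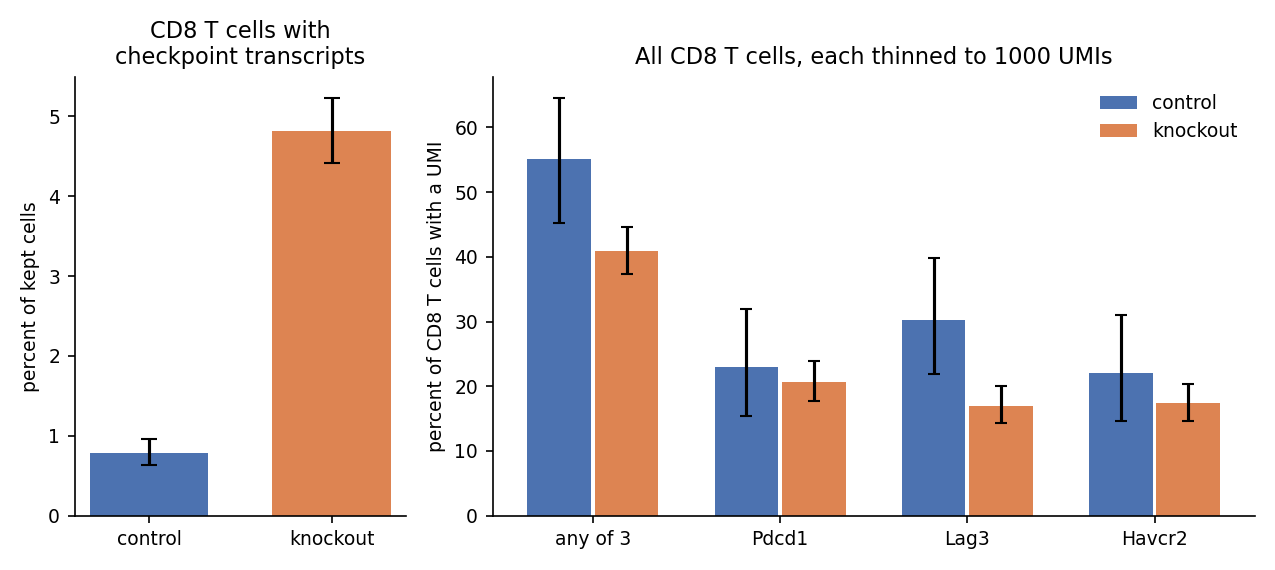
The left panel plots checkpoint-positive CD8 T cells as a percent of kept cells, and the right panel the percent of all CD8 T cells with a receptor UMI after thinning each cell to 1000 UMIs, for the control (blue) and knockout (orange) library. Bars are shares of 1 library each and whiskers exact 95% binomial intervals. The abundance bar is at 0.780% in control and 4.81% in knockout, while the bar for any of the 3 receptors is at 55.05% and 40.9%.

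Within the checkpoint-positive cells, receptor combinations and Pdcd1 levels were close between libraries, while Lag3 and Havcr2 levels were lower in the knockout. These values chose the cells and are given as a description. Pdcd1 stood at 298 CPM in control (exact Poisson interval 251 to 351) and 319 CPM in knockout cells (299 to 341). Lag3 stood at 352 CPM (301 to 410) and 281 CPM (261 to 301), and Havcr2 at 348 CPM (297 to 405) and 262 CPM (244 to 282). Pdcd1 was seen in 72.5% and 74.2% of cells, Lag3 in 76.9% and 70.2%, and Havcr2 in 56.0% and 56.2%. Lag3 and Havcr2 were thus lower per UMI in the knockout cells and Pdcd1 was not. Leaving out the deepest control cell gave log2 ratios of -0.52 for Lag3, -0.60 for Havcr2 and -0.08 for Pdcd1.

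At full depth, most checkpoint-positive cells showed more than 1 receptor. All 3 were seen in 28 of 91 control cells (30.8%, interval 21.5 to 41.3) and 157 of 520 knockout cells (30.2%, 26.3 to 34.3). A pair was seen in 44.0% and 40.2%, and a single receptor in 25.3% and 29.6%. Pdcd1 with Lag3 was the most frequent pair in both libraries, at 27.5% and 21.2%, ahead of Lag3 with Havcr2 at 9.89% and 9.42% and Pdcd1 with Havcr2 at 6.59% and 9.62%. The sum of the 3 receptors had a median of 3 UMIs and a maximum of 33 in control cells, and a median of 4 and a maximum of 47 in knockout cells. At the rule's threshold stood 12 control and 100 knockout cells with exactly 1 receptor UMI, and 19 and 183 CD8 T cells had none. Depth was higher with the number of receptors seen, from medians of 2878 to 5253 UMIs in control and from 3561.5 to 5566 in knockout cells, so combinations describe detection and not on or off states. Thinned to 1000 UMIs, 70.0% of the 60 control and 68.99% of the 287 knockout cells that still showed a receptor showed a single one, and at 2000 UMIs 49.3% of 71 and 56.0% of 405.

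**Figure D2:**
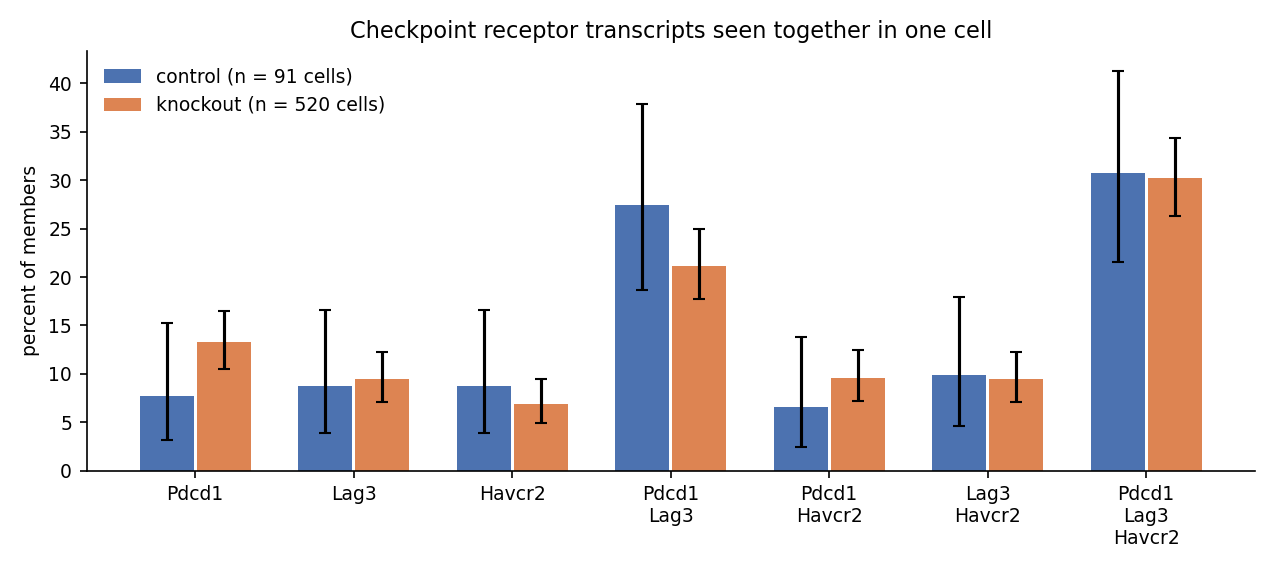
Percent of checkpoint-positive CD8 T cells in which each combination of Pdcd1, Lag3 and Havcr2 had a UMI, by library, with exact 95% binomial intervals as whiskers. The bars for all 3 receptors stand at 30.8% and 30.2%, and every pair of whiskers overlaps.

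In both libraries, cells that showed all 3 receptors carried more Prf1 than cells that showed 1, and in the knockout library more Gzmb. Receptors were counted at full depth, so thinning does not remove depth from this grouping. Prf1, which encodes the pore-forming protein perforin, was seen at 1000 UMIs in 21.7%, 30.0% and 67.9% of control cells with 1, 2 and 3 receptors, and in 24.8%, 32.1% and 55.4% of knockout cells. Gzmb, which encodes granzyme B, was seen in 24.2%, 29.7% and 47.1% of knockout cells and in 34.8%, 22.5% and 46.4% of control cells. The control Gzmb intervals for 1 and 3 receptors overlap (16.4 to 57.3 and 27.5 to 66.1). Tnfrsf9, which encodes the costimulatory receptor 4-1BB, went from 12.4% to 21.5% and 33.8% in knockout cells and from 4.35% to 17.5% and 25.0% in control cells. The control values are 1 of 23, 7 of 40 and 7 of 28 cells. Their intervals for 1 and 3 receptors overlap (0.110 to 21.9 and 10.7 to 44.9). Per UMI, Tnfrsf9 was at 287, 160 and 518 CPM in control cells, without a rise at each step, and at 147, 287 and 324 CPM in knockout cells. Tox, a factor of persistent stimulation, was seen in 45.1%, 51.2% and 57.3% of knockout cells and in 6 of 23, 20 of 40 and 11 of 28 control cells. Mki67, a proliferation gene, was seen in 3.92%, 5.26% and 12.1% of knockout cells and in 1 of 23, 6 of 40 and 2 of 28 control cells. The knockout intervals for 1 and 3 receptors overlap for Tox (37.1 to 53.3 and 49.2 to 65.2). They also overlap for Mki67 (1.45 to 8.34 and 7.45 to 18.3). The shares of Nkg7 and Gzma did not rise at each step. Nkg7, a granule gene, was seen in 82.6%, 80.0% and 82.1% of control and 75.8%, 85.2% and 84.7% of knockout cells. The granzyme gene Gzma was seen in 1, 0 and 0 control and 3, 0 and 3 knockout cells, too few to order. Per UMI, Nkg7 did rise in knockout cells, at 1869, 2388 and 2769 CPM. In control cells it was at 1737, 2301 and 3453 CPM, the first being 3135 CPM without the deepest control cell. Summed per UMI, Prf1 was at 270, 551 and 2231 CPM in control cells and at 305, 558 and 1163 CPM in knockout cells. The deepest control cell was among those with 1 receptor, and without it their Prf1 level was 468 CPM (316 to 668), which overlaps the interval of cells with 2 (441 to 681). Cells with 3 receptors had the most Prf1 in both libraries and on both scales, while the control shares of Gzmb, Tox and Mki67 did not rise at each step.

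Compared with CD8 T cells that showed none of the 3 receptors in the same library, checkpoint-positive cells held more effector and less naive-type transcript. The receptors set these groups apart and depth differs between them, so the contrast is a description. Of 3262 genes with a mean of at least 50 CPM, 52 (1.59%) were at least 2-fold higher and 51 (1.56%) at least 2-fold lower in both libraries. The control side rests on 19 cells with 59072 UMIs and a median of 2044 UMIs, against 183 knockout cells with a median of 3429, so the knockout values carry most of the counts. Natural killer markers summed to 305 CPM in control comparison cells and 29.3 CPM in checkpoint-positive ones, and to 76.8 and 119 CPM in knockout. Plasma cell markers summed to 186 and 46.1 CPM in control and 310 and 247 CPM in knockout. Fibroblast markers summed to 135 and 2448 CPM in control and 1042 and 533 CPM in knockout. The part of such cells in the contrast was not tested. Log2 ratios were taken after adding 1 UMI to each sum.

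Higher genes were led by chemokines and killing genes. Prf1 had log2 ratios of 4.13 in control and 2.66 in knockout cells, Gzmb 1.85 and 2.32, and Ifng, the gene of interferon gamma, 2.79 and 1.98. Ccl3 and Ccl4, whose products are chemokines that attract leukocytes, had 5.38 and 4.12, and 5.28 and 2.29. Single cells held 80.5% of the control and 49.9% of the knockout Ccl3 UMIs and 47.1% of the control Ccl4 UMIs. Without the cell richest in the gene in each library, Ccl3 had 3.102 and 3.15, Ccl4 4.44 and 2.06, and Gzmb 1.29 and 2.27, still past 2-fold. Rgs16, a regulator of G protein signalling, had 2.28 in knockout cells and no UMI in the 19 control comparison cells, Tnfrsf9 1.76 and 2.49, and Entpd1, which encodes the ectonucleotidase CD39, 2.60 and 1.64. The predicted gene Gm156 had 3.27 and 3.35, and the kinase gene Styk1 1.69 and 1.59. The 19 control comparison cells held 1 UMI each of Gm156, Styk1 and Entpd1 and 3 of Prf1. They held 4 each of Ccl3 and Ccl4, 5 of Tnfrsf9, 6 of Ifng and 20 of Gzmb. The size of most of these control ratios is therefore poorly resolved. At 1000 UMIs, Prf1 was seen in 37.0% of checkpoint-positive and 11.5% of other knockout CD8 T cells, Gzmb in 33.3% and 10.4%, Nkg7 in 82.3% and 57.1%, and Klrd1, which encodes CD94, in 52.4% and 26.4%. These intervals did not overlap in the knockout library.

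Tcf7, a factor of naive and stem-like T cells, led the lower genes by the smaller of the 2 libraries' log2 ratios in size. In that order Gm2682, Cmah, Pik3r5 and Itgae came before Lef1, another such factor. Tcf7 had log2 ratios of -2.88 in control and -3.13 in knockout cells, and Lef1 -2.01 and -3.67. At 1000 UMIs, Tcf7 and Lef1 were each seen in 1.93% of checkpoint-positive and 18.1% of other knockout CD8 T cells, Klf2, a factor of recirculating cells, in 4.43% and 18.7%, and Il7r, the receptor gene for interleukin 7, in 15.03% and 29.7%. The integrin genes Itgae and Itgb7 had -2.11 and -2.04, and -3.01 and -1.76. Further genes named by the rule were Gm2682, Cmah, Pik3r5, Gramd3, Aff3 and Emb, with log2 ratios between -3.28 and -1.51. In the 19 control comparison cells, Tcf7 and Lef1 were each seen in 1 of 18 thinned cells, so the control side of these shares is not resolved. At full depth those 19 cells held 3 UMIs of Aff3, 4 each of Lef1 and Pik3r5, 5 of Cmah and 7 of Itgae. They held 8 of Itgb7, 9 each of Tcf7 and Emb, 16 of Gramd3 and 29 of Gm2682. The size of most control log2 ratios of these lower genes is therefore also poorly resolved.

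**Figure D3:**
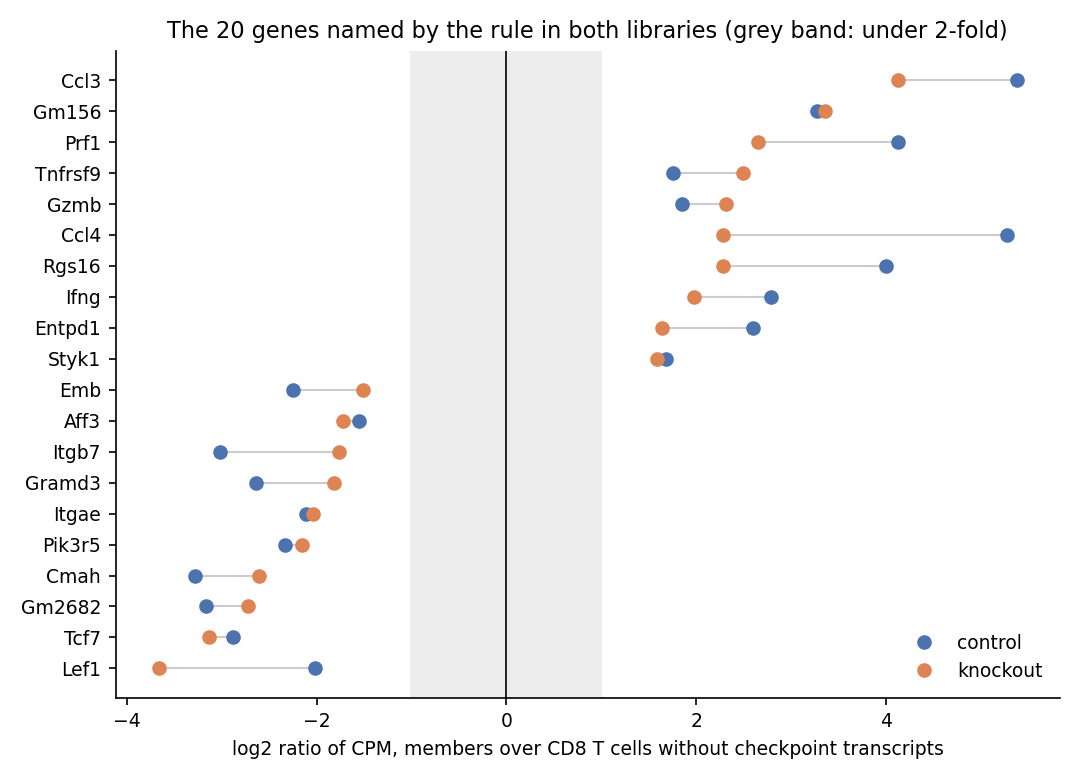
Log2 ratio of CPM in checkpoint-positive over other CD8 T cells of the same library for the 20 genes named by the rule, control in blue and knockout in orange, with lines joining the same gene. Points are sums over all cells of 1 library with no error bar. The control point of Rgs16 is set by the added UMI, since its comparison cells had none. Control points of Gm156, Styk1 and Entpd1 rest on 1 comparison UMI each. Genes are sorted by the knockout ratio. Ccl3, Gm156 and Prf1 head the list and Tcf7 and Lef1 end it, with both libraries on the same side of 0 for each gene because the rule asked for it.

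By list, of 12 cytotoxic genes that could be compared, Gzmb, Prf1, Nkg7 and Cst7 were at least 2-fold higher in both libraries and Gzma was at least 2-fold lower, with medians of 0.01 and 0.37 in control and knockout. Of 9 naive and stem-like genes, Tcf7, Lef1, Klf2 and Klf3 were at least 2-fold lower and none was higher, with medians of -0.81 and -1.45. Of 11 costimulatory receptor genes, Icos, Tnfrsf9 and Tnfrsf18 were higher and none lower. None of 10 exhaustion-associated factors passed 2-fold in both libraries, although their medians were 0.47 and 0.84. Over all genes the medians were -0.29 and 0.02. Tox stood at 763 CPM against 356 CPM in control cells and at 944 against 541 CPM in knockout cells.

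Between knockout and control, the checkpoint-positive cells were close in most genes. Of 3185 genes with a mean of at least 50 CPM, 19 (0.597%) were at least 2-fold higher and 68 (2.14%) at least 2-fold lower in knockout cells, and the median log2 ratio was 0.02. Without the deepest control cell 21 were higher, 12 of them among the 19, and 19 were lower, 12 of them among the 68. Of the 19 higher genes, Ctss, Chil3, Igkc, Apoe, Lyz2, H2-Eb1 and Cd74 are genes of macrophages, plasma cells or antigen-presenting cells, named here after their values were seen. The summed macrophage and plasma cell markers given above were also higher, but their lists hold Apoe, Lyz2 and Igkc. The sums are therefore not separate evidence. A single knockout cell held 29.5% of the macrophage and monocyte marker UMIs of its library's checkpoint-positive cells.

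The interferon-inducible gene Ifi27l2a headed the higher side of the rule for naming genes. It stood at 264 CPM in control (220 to 314) and 739 CPM in knockout cells (708 to 772), a log2 ratio of 1.47 (exact interval 1.23 to 1.76). It had a UMI in 39.6% and 64.0% of cells, and at 1000 UMIs in 13.2% (7.004 to 21.9) and 34.7% (30.6 to 39.0). The ratio stayed between 1.14 and 1.82 over all settings tried. In the knockout library the gene was also higher over non-T cells, at 127 and 336 CPM in control and knockout. CD8 T cells without the receptors had 118 and 448 CPM, over 19 control and 183 knockout cells. Foxp3 cells had 317 and 2094 CPM, but 1 of the 8 control cells held 55.1% of their UMIs. In conventional CD4 T cells, 21 in control and 308 in knockout, the values were closer, at 1203 and 1362 CPM. The part of free RNA in its level was not tested. The other tested genes of its list did not follow. Ifi27l2a was the only one of 10 type I interferon genes tested at least 2-fold higher, none was lower, and the median was -0.04. The list had 24 genes in the data, and those below the minimum were not compared. Among these, Ifi206 and Ifi208 were seen in a larger share of knockout cells at unequal depth, as given under other observations.

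The 4 further genes on the higher side rested on few control UMIs. Aff3, a nuclear factor gene, went from 21.0 to 80.2 CPM (log2 ratio 1.80), Rad51b, a DNA repair gene, from 39.8 to 108 CPM (1.37), the predicted gene Gm26827 from 35.6 to 80.9 CPM (1.11), and Cd38, which encodes an NAD-consuming ectoenzyme, from 37.7 to 82.0 CPM (1.05). Their control sums were 10, 19, 17 and 18 UMIs. Among cells of 2000 to 8000 UMIs, Rad51b had a log2 ratio of 0.38 and Aff3 0.90, below 2-fold, while Cd38 had 1.25. Ccl5, a chemokine of effector T cells, lay just under 2-fold, at 3064 CPM (2909 to 3226) and 5887 CPM (5798 to 5977). Its log2 ratio of 0.94 ranged from 0.56 to 0.98. The medians were 6 and 14 Ccl5 UMIs per cell, at unequal depth. At 1000 UMIs Ccl5 was seen in 61.5% (50.8 to 71.6) of control and 69.4% (65.2 to 73.3) of knockout cells, with overlapping intervals.

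Ifng and the calmodulin-binding gene Nrgn were lower in the knockout cells. Nrgn stood at 199 CPM (161 to 243) and 68.9 CPM (59.6 to 79.3), a log2 ratio of -1.54 (-1.89 to -1.16) that lay between -1.90 and -1.47 over the settings tried. At 1000 UMIs it was seen in 17.6% (10.4 to 27.0) and 4.43% (2.83 to 6.58) of cells. Ifng stood at 820 CPM (740 to 905) and 347 CPM (325 to 369), a log2 ratio of -1.24 (-1.41 to -1.07). The Ifng UMIs sat in few cells, with 81.3% of the control sum in 10 cells and 18.5% of the knockout sum in 1 cell. Without the 5 deepest cells of each library the ratio was -0.66, and among cells of 2000 to 8000 UMIs it was -0.59, on the same side but below 2-fold. At 1000 UMIs Ifng was seen in 31.9% (22.5 to 42.5) of control and 17.7% (14.5 to 21.3) of knockout cells, whereas at full depth the shares were 51.6% and 52.3%.

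Ccl3 and Ccl4 showed how far 1 cell could carry a sum. Ccl3 was at 3523 CPM in control and 681 CPM in knockout cells, a log2 ratio of -2.37. A single control cell held 1354 of the 1681 control UMIs (80.5%), and a single knockout cell held 49.9% of that library's. Without the 5 deepest cells of each library the log2 ratio was 0.44, and at 1000 UMIs Ccl3 was seen in 11.0% and 13.9% of cells, with overlapping intervals. Ccl4 stood at 3289 and 1616 CPM with 47.1% of the control UMIs in 1 cell, and its ratio of -1.03 became 0.057 without the 5 deepest. A difference of either chemokine between genotypes is therefore not shown across cells.

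The other lower genes differed in how far single cells carried them. Serinc3, a membrane protein gene, went from 159 to 61.5 CPM (log2 ratio -1.38) with at most 5.26% of the UMIs in 1 cell. At 1000 UMIs Serinc3 was seen in 7.69% (3.15 to 15.2) and 5.202% (3.46 to 7.48) of cells, with overlapping intervals. Myo10, a myosin gene, went from 205 to 67.1 CPM (-1.62) and was seen at 1000 UMIs in 12.1% (6.19 to 20.6) and 4.82% (3.14 to 7.03), also overlapping. Over the settings tried Serinc3 and Myo10 stayed at or below -1.34 and -1.22. Gm2a, a lysosomal activator gene, had 56.8% of its control UMIs in 1 cell, and its ratio of -1.60 was -0.59 without the deepest control cell. Chchd10, a mitochondrial protein gene, had -1.10 and was -0.55 without the cell richest in it in each library. The predicted gene Gm26917 had -1.09, and -0.68 under the strict cell filter. Spp1, which encodes osteopontin and belongs to the effector cytokine list, did not meet the rule for naming genes because of its level over non-T cells. It was at 742 and 363 CPM (-1.03) and was seen at 1000 UMIs in 25.3% and 7.71% of cells. Over non-T cells it stood at 3433 and 1751 CPM, and the part of free RNA in it was not tested.

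**Figure D4:**
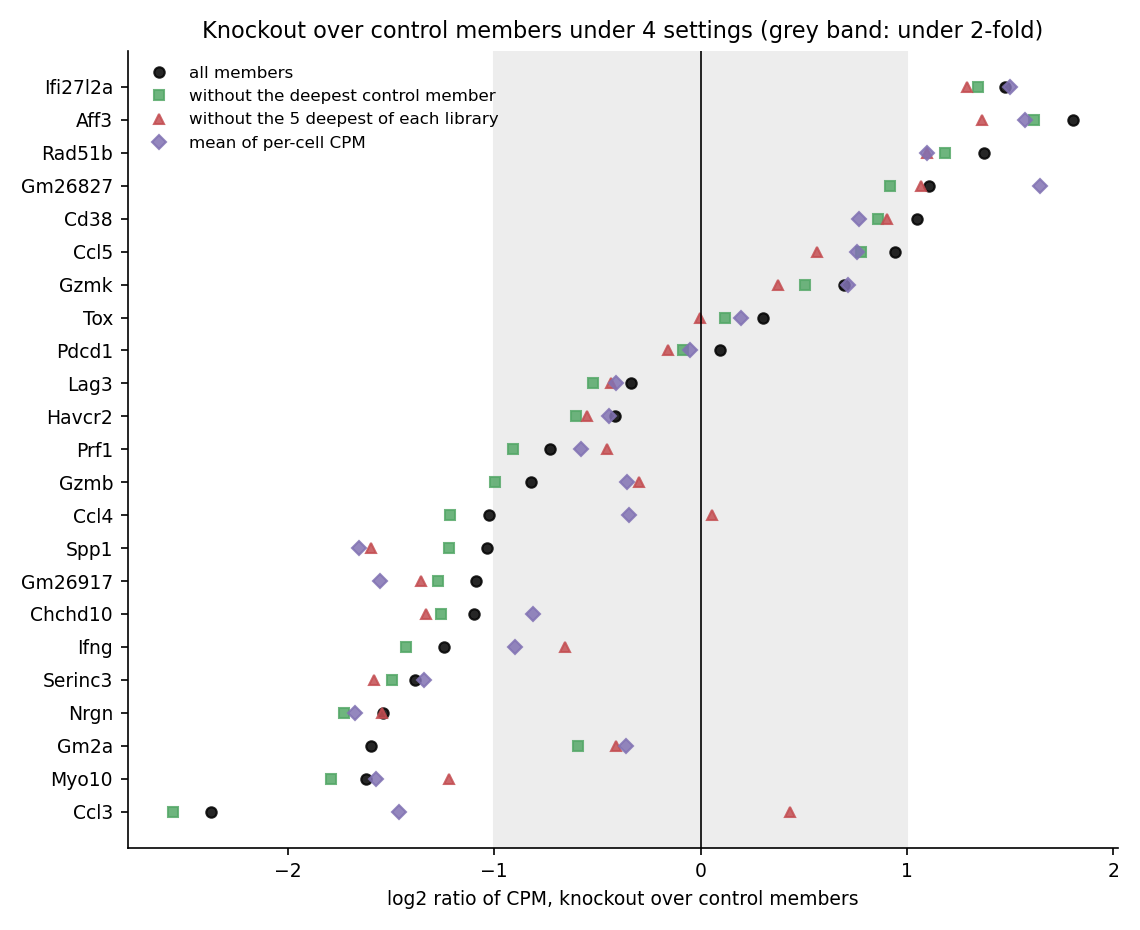
Log2 ratio of knockout over control checkpoint-positive cells for 23 genes under 4 settings, with all cells in black, without the deepest control cell in green, without the 5 deepest cells of each library in red, and as a mean of per-cell CPM in purple. Ifi27l2a lies above 1 and Nrgn, Serinc3 and Myo10 below -1 under all 4, whereas Ccl3 moves from -2.37 to 0.44.

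**Figure D5:**
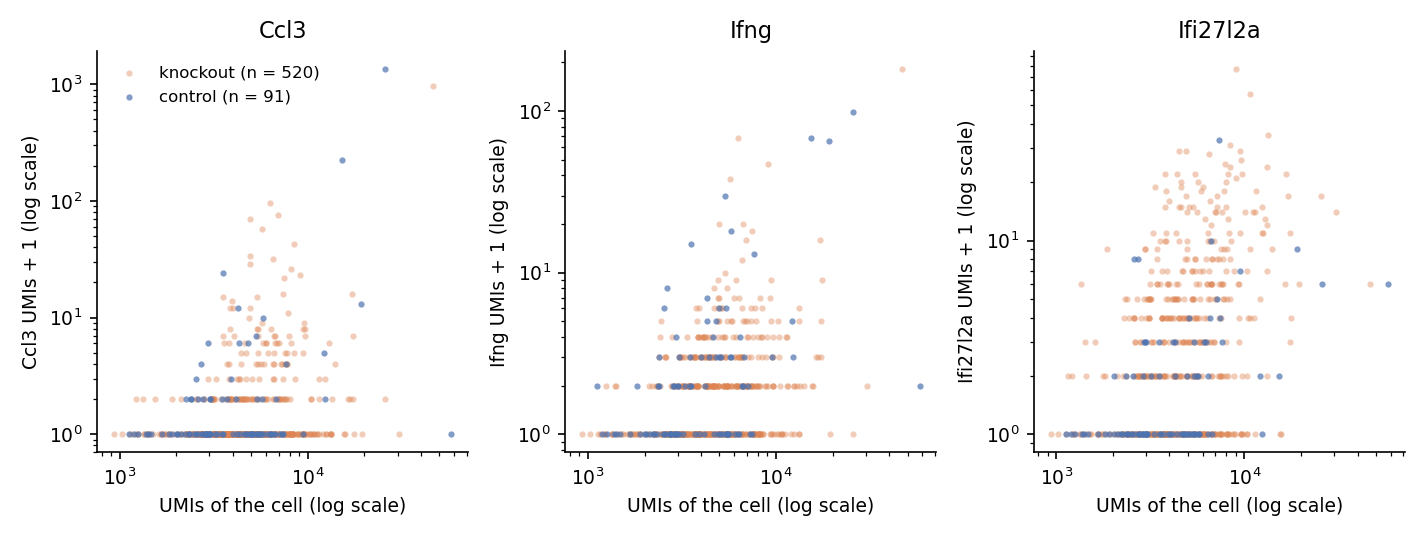
UMIs of Ccl3, Ifng and Ifi27l2a plus 1 in each checkpoint-positive cell against the UMIs of the cell, both on log scales, with 91 control cells in blue and 520 knockout cells in orange. Ccl3 reaches 1354 UMIs in 1 control cell and 962 in 1 knockout cell, and Ifi27l2a is spread over many knockout cells with a highest value of 76 UMIs.

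The cytotoxic genes did not move as a group between genotypes. Of 14 cytotoxic genes tested, Gzmd, Gzme and Gzmf were at least 2-fold higher in knockout cells and Serpinb9, an inhibitor of granzyme B, was lower, and 7 of the 14 lay above 0 and 7 below. The Gzmd, Gzme and Gzmf sums came to 94.9%, 93.3% and 73.5% from 1 knockout cell, so they describe single cells. Prf1 stood at 1180 CPM (1085 to 1282) and 713 CPM (682 to 745), but at 1000 UMIs it was seen in 39.6% and 37.0% of cells. Gzmb stood at 1279 CPM (1179 to 1384) and 725 CPM (694 to 757), with 35.7% of the control UMIs in 1 cell, and was seen at 1000 UMIs in 33.0% and 33.3% of cells. Nkg7 stood at 2637 and 2399 CPM. Gzmk, another granzyme gene, was at 54.5 and 91.1 CPM, a log2 ratio of 0.69 (0.16 to 1.38).

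Inhibitory and costimulatory receptors outside the rule had list medians near that of all genes compared (0.02). Over all genes 0.597% passed 2-fold higher and 2.14% lower, so none past 2-fold in a short list says little about that list. Of 9 other inhibitory receptor genes tested, only Cd38 passed 2-fold, and the median was 0.11. Ctla4 stood at 268 and 297 CPM, Entpd1 at 203 and 222 CPM, and Klrc1, which encodes NKG2A, at 243 and 176 CPM. None of 9 costimulatory genes passed 2-fold, and the median was 0.03. None of 9 exhaustion-associated factors passed either, with a median of -0.10. Tox was at 763 CPM (687 to 846) and 944 CPM (908 to 980), a log2 ratio of 0.30 that was -0.0031 without the 5 deepest cells. Rbpj, a Notch pathway factor, was at 493 and 531 CPM, and Nfatc1, a calcium-driven factor, at 166 and 116 CPM.

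The remaining lists held few genes past 2-fold, as did all genes compared (0.597% higher and 2.14% lower). No gene was 2-fold higher or lower among 8 tissue residency, 5 killer lectin-like receptor, 8 cell cycle, 13 cytokine receptor, 9 integrin, 12 interferon gamma response or 4 naive and stem-like genes tested, whose medians lay between -0.11 and 0.22. The cell cycle share, counted as cells with 3 or more UMIs of the list at 1000 UMIs, was 12.1% (6.19 to 20.6) and 11.4% (8.77 to 14.4). Effector cytokines had Ifng and Spp1 lower among 6 tested (median -0.28), chemokines and their receptors had Ccl3 and Ccl4 lower among 8 (0.14), T cell receptor signalling had Egr1 lower among 21 (0.01), and immediate early and heat shock genes had Egr1 and Ier3 lower among 15 (0.08). Egr1 and Ier3, immediate early genes, had 62.3% and 88.8% of their control UMIs in 1 cell, and their ratios of -1.002 and -2.74 became 0.19 and 0.12 without the deepest control cell. Among the 4 tested genes of the Wnt pathway list (median -0.23), the cyclin gene Ccnd2 was lower (312 and 143 CPM, log2 ratio -1.13), and it was -0.63 without the deepest control cell. Axin2, a feedback target of Wnt signalling, had 3 control and 14 knockout UMIs, too few to compare.

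Glycolysis and hypoxia genes leaned lower in sum but not cell by cell. Of 16 tested, 15 had ratios below 0 and Bnip3 alone passed 2-fold, with a median of -0.37. Bnip3 had -1.03, and -0.42 without the deepest control cell. Ldha, the lactate dehydrogenase gene, was at 725 and 479 CPM and Gapdh at 1876 and 1396 CPM. The median was -0.020 for means of per-cell CPM and -0.090 without the 5 deepest cells. Gapdh had 29.6% of its control UMIs in 1 cell and was seen at 1000 UMIs in 67.0% and 60.9% of cells, with overlapping intervals.

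T cell receptor beta variable segments were sparse and spread. A Trbv UMI was seen in 25 of 91 control and 154 of 520 knockout cells, over 11 and 18 of 35 segments. Trbv3 was the most frequent in control (5 of 25 cells) and Trbv17 in knockout cells (26 of 154). Reads from the 3′ end rarely reach these segments and the mice were pooled, so clones cannot be read from them.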

How the data were processed

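The deposited files held whole-number counts of UMIs per gene and barcode, 32285 genes by 13766 control and 12251 knockout barcodes, from 3′ 10x libraries. The matrices were written by Cell Ranger software 8.0.0 per the file headers, whereas the submitters' processing notes name Cell Ranger 3.1.3 and mm10, and the conflict was not resolved. Rows that share a symbol were summed. The cell rule, the gene lists and the comparisons were chosen with earlier results of these data known. Counts were summed per library and divided by all UMIs of the same cells (CPM). With 1 library per group no test was run. Shares have exact Clopper-Pearson intervals, CPM exact Poisson intervals and ratios exact conditional intervals, at 95% for counting error only. A gene was compared with a mean CPM of at least 50 and called at 2-fold, after 1 UMI was added to each sum. Thinning drew 1000 UMIs per cell without replacement (seed 0).

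Genes of the 19 lists could be named. In addition, genes in or outside the lists were named as the 12 highest and 12 lowest between libraries, and the 10 highest and 10 lowest against other CD8 T cells, by the interval bound nearest 0 or the smaller log2 ratio. They needed a UMI in at least 10% of the cells of the higher group, 2 times the level over non-T cells and the same direction in per-cell means, which left 5 higher and 9 lower genes between libraries. Genes of the rule, mitochondrial, ribosomal and T cell receptor segment genes were left out of naming. Doublets were called per library with Scrublet in scanpy 1.11.5 (expected rate 0.08), marked 1.27% and 3.15% of kept cells, and were removed as an alternative only. Intervals and calls were tested on simulated Poisson sums per gene. These held no spread between cells, so they do not cover sums carried by single cells. Gene positions used GENCODE M21 on GRCm38, the build of mm10, and promoters RefSeq on GRCm38.p6. Python 3.11.15, numpy 2.4.6, scipy 1.17.1, pandas 2.3.3 and matplotlib 3.10.9 were used. Alternatives covered the cell filter, receptor threshold, doublets, other-lineage cells, CPM minimum, per-cell means, pseudocount, thinning depth the deepest cells and the cells richest in a gene, the last 2 in part chosen after seeing the data. Values of a few list genes are not reported here.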

Additional observations from a re-analysis of the deposited data

Results flagged for a closer look

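CD8-positive T cells that the rule left out also carried receptor transcripts. In the control library 15 of 18 cells over the keratin limit had a UMI of Pdcd1, Lag3 or Havcr2 (83.3%, exact binomial interval 58.6 to 96.4), and in the knockout library 70 of 92 (76.1%, 66.1 to 84.4). These cells were deep, with medians of 14071 and 17849 UMIs. Among knockout cells left out for a Cd4 UMI, 31 of 41 had a receptor UMI (75.6%, 59.7 to 87.6), and among those left out for a Foxp3 UMI 14 of 17 (82.4%, 56.6 to 96.2). They were singled out because they lie outside the cells described and the low ends of their intervals exceed the share in keratin-rich cells. Without thinning that share was 11.5% in control and 16.4% in knockout keratin-rich cells, at median depths of 16182 and 17292 UMIs. Depths were not matched in this comparison. Whether these barcodes hold more than 1 cell was not tested.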

How the results depend on the processing

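No paired analysis was possible because each genotype was 1 pooled library. The abundance ratio of knockout to control was between 5.74 and 6.80 over the other settings and 2.999 among cells within the keratin limit. The share of CD8 T cells with a receptor UMI was 76.3% and 62.4% in control and knockout at 2000 UMIs, 82.7% and 74.0% without thinning, and 24.8% and 18.5% with at least 2 receptor UMIs at 1000, lower in the knockout each time. The counts of 19 higher and 68 lower genes became 10 and 20 without cells holding 3 or more UMIs of other leukocyte markers, 100 and 204 at a mean of 20 CPM, 5 and 37 at 100 CPM, and 12 and 22 among cells of 2000 to 8000 UMIs. The lower count was 18 with at least 2 receptor UMIs, 25 for per-cell means, 20 without the 5 deepest cells of each library, 19 without the deepest control cell and 19 without cells of 3 or more fibroblast UMIs. Genes lower than in other CD8 T cells were 16 at 100 CPM and 33 for per-cell means, against 51. The glycolysis median was -0.11 without the leukocyte-marker cells, -0.020 per cell and -0.090 without the 5 deepest cells, and the chemokine median -0.24 per cell.

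Single genes changed sign as follows. Without the 5 deepest cells of each library, Ccl3 was 0.44, Ccl4 0.057, Gapdh 0.11, Gzmf -0.29, Pgk1 0.30, Tnfrsf9 0.33 and Tox -0.0031. With at least 2 receptor UMIs, Egr1 was 0.37, Ier3 0.30 and Pgk1 0.13. Without the leukocyte-marker cells, Gapdh was 0.10, Gzmf -0.30, Pgk1 0.24 and Tnfrsf9 0.12. For per-cell means, Bnip3 was 0.011, Gzmf -0.43, Pgk1 0.063 and Tnfrsf9 0.21. Among cells of 2000 to 8000 UMIs, Ccl3 was 0.54, Ccl4 0.21, Egr1 0.037, Gzmd -1.63, Gzme -1.04, Gzmf -1.70, Pgk1 0.087 and Tnfrsf9 0.38. Without the fibroblast-UMI cells, Egr1 and Ier3 were 0.084 and Pgk1 0.13. Without the deepest control cell, Egr1 was 0.19, Ier3 0.12 and Pgk1 0.13, and without the cell richest in the gene, Egr1 was 0.030 and Pgk1 0.093. The cause of these changes was not tested beyond the single-cell shares given above. The median over all compared genes stayed between -0.05 and 0.03. The 91 control cells limit every comparison, since 3 UMIs there are 6.29 CPM against 1.06 CPM in the knockout cells.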

Other observations

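The lectin-like receptor gene Klri2, below the minimum for comparison and named after its values were seen, had 37 UMIs in each library, at 77.6 CPM in control and 13.1 CPM in knockout checkpoint-positive cells, and was seen in 20.9% and 3.85% of cells. The heat shock and stress genes Jun, Hspa1a and Dnajb1 stood at 279 and 549 CPM, 117 and 182 CPM, and 79.6 and 144 CPM, under 2-fold. The interferon-inducible genes Ifi206 and Ifi208, also below the minimum, had a UMI in 5 of 91 control and 104 of 520 knockout cells, and in 3 of 91 and 65 of 520, at unequal median depths of 3699 and 4599 UMIs. No explanation of these values was tested.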
